A study of Mus musculus and Rattus norvegicus with 28 samples.

Results

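The 9 genes described here encode subunits of cardiac potassium and pacemaker channels: Kcnj2, Kcnj11, Abcc9, Kcnh2, Kcnq1, Kcnip2, Kcnd2, Kcnd3 and Hcn4. They were taken by their symbols, not by their values, and no sodium channel gene is among them. All 9 were found among the 55450 genes of the mouse RNA-seq files, and 8 among the 32623 genes of the rat files, where Kcnd2 was not found under its symbol. Mouse cells were isolated from left ventricles of C57BL/6 animals at embryonic day 18.5 (E18.5) and at postnatal days 1, 3 and 7 (P1, P3 and P7), with 2 RNA-seq and 2 ATAC-seq libraries at each age. Rat ventricular cells were isolated from Sprague-Dawley animals at P1, cultured, and treated from the day after plating with 100 nM trichostatin A (TSA), an inhibitor of histone deacetylases, or with its solvent DMSO, with 3 RNA-seq libraries each. No library carried a genetic change, and age is the only difference that the labels give between the mouse groups. The study calls its replicates biological but does not say whether they came from separate litters or cultures, and p-values measure the spread between these libraries. H3K27ac HiChIP libraries of the same study were not analysed here.

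All libraries are labelled as cardiomyocytes and were made from dissociated ventricles after pre-plating, a step that lets cells that stick fast, such as fibroblasts, attach and be left behind. The summed FPKM (fragments per kilobase of transcript, scaled to the mapped fragments of the library) of 16 cardiomyocyte markers was 31573 and 40506 (E18.5), 14305 and 23173 (P1), 9604 and 8334 (P3), and 2383 and 1009 (P7). Over the same ages the summed FPKM of 12 fibroblast markers went from 591 and 600 to 3063 and 3799. The sum of 7 red blood cell markers was 29046 and 35395 (E18.5) and from 4.70 to 41.0 in the later libraries. Like the channel genes, these lists changed with age, the fibroblast list upward and the other lists downward. Their part in the results was not tested. In bulk samples, fewer cells of a type and less RNA per cell cannot be told apart.

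The shape and length of the cardiac action potential are set in large part by potassium currents. The inward rectifier holds the resting potential, the transient outward current makes the early notch of repolarization, and the rapid and slow delayed rectifiers end the plateau. ATP-sensitive channels open when the energy charge of the cell falls, and pacemaker channels carry the inward current that drives spontaneous beating. Around birth the ventricle changes its set of channels, and the adult mouse ventricle repolarizes mainly through transient outward and ultrarapid currents, whereas larger mammals rely on the delayed rectifiers.

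At E18.5 the highest levels among the 9 genes were those of Kcnip2 and Kcnh2, with means of 30.4 and 29.2 FPKM and libraries that overlapped. Kcnq1 (20.2 FPKM), Abcc9 (14.0 FPKM), Kcnj11 (8.96 FPKM), Kcnj2 (3.76 FPKM) and Hcn4 (1.72 FPKM) followed in that order. Both libraries of each were below those of the gene before, except that Kcnq1 replicate 2 (23.3 FPKM) was above Kcnip2 replicate 1 (21.9 FPKM). Kcnd2 and Kcnd3 stayed under 1 FPKM in all 8 mouse libraries and were not tested. In the other 7 genes log2(FPKM + 1) was compared between ages with limma, and a gene was called at a Benjamini-Hochberg adjusted p under 0.05 with a difference of more than 1. This scale understates the change of genes near 0. At P1, 1 of the 7 was lower than at E18.5 and none was higher, where 6.06% of the 13979 genes tested were called lower and 10.1% higher. At P3, 3 of the 7 were called lower, against 8.88% of all genes tested, and at P7, 6 of the 7, against 12.3%. The median difference of the 7 genes went from -0.10 (P1) through -0.98 (P3) to -2.37 (P7), while that of all genes tested lay between 0.14 and 0.16. From P1 to P7 the same 6 genes were called lower, against 5.46% of all genes. This last comparison shares its P7 libraries with the one against E18.5.

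**Figure D1:**
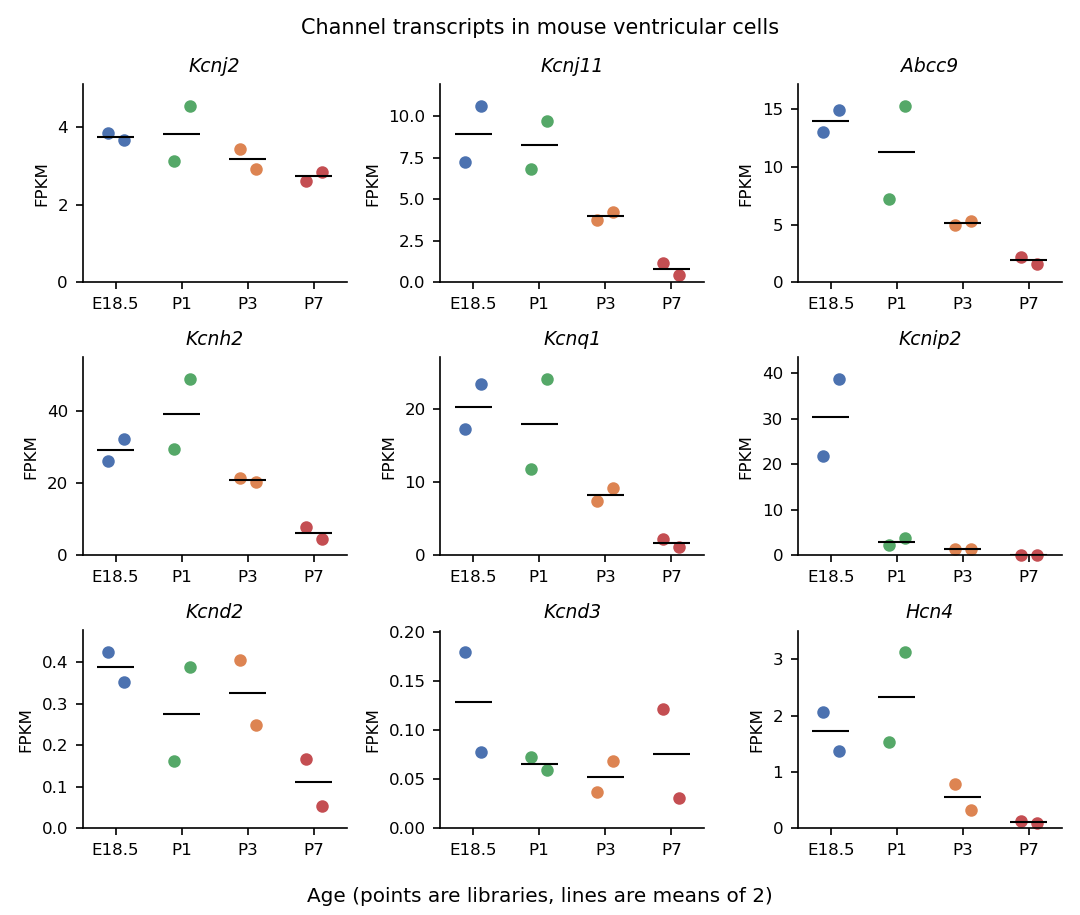
FPKM (vertical axis, linear, from 0) of the 9 channel genes in each mouse RNA-seq library at E18.5, P1, P3 and P7 (points), with the mean of the 2 libraries of an age as a line. Kcnip2 dropped between E18.5 and P1, Kcnh2, Kcnq1, Abcc9, Kcnj11 and Hcn4 were lower at P7, and Kcnj2 stayed between 2.62 and 4.55 FPKM.

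Kcnj2 encodes the main pore-forming subunit of the ventricular inward rectifier. Its level was 3.84 and 3.67 FPKM (E18.5), 3.12 and 4.55 (P1), 3.44 and 2.92 (P3), and 2.62 and 2.84 (P7). Both P7 libraries were below both E18.5 libraries, as in 32.7% of all genes tested, yet the difference of -0.35 ± 0.19 (SE) did not pass the test (adjusted p = 0.145). Kcnj2 was the only 1 of the 7 tested genes not called lower at P7. It has 1 annotated transcript, at chr11:111066164-111076821 on the plus strand of mm10 (GRCm38), and was the only gene of the 9 with an ATAC-seq peak over the start of its transcript in all 8 libraries. The authors' fold enrichment at that peak was 8.98 and 5.18 (E18.5), 8.05 and 5.79 (P1), 10.9 and 9.01 (P3), and 8.81 and 7.80 (P7). The peaks lay within chr11:111065621-111066619, and the promoter window within that span, which overlaps the peak of every library, from 250 bases before to 50 after the RefSeq start, is shown because it was the most regularly open start site of the group. It lies at chr11:111065914-111066213, plus strand. Capitals mark 2 GC boxes (GGGCGG) and 1 E-box (CACGTG), which sits between them 84 to 79 bases before the start.
Kcnj2: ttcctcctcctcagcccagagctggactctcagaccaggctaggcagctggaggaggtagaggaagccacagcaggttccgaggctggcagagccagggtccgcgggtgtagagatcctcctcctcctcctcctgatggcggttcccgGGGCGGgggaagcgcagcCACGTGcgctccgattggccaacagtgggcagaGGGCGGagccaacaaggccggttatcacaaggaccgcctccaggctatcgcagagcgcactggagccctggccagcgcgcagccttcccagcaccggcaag

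Kcnj11 and Abcc9 encode the pore and the sulfonylurea receptor of ATP-sensitive channels, and Abcc9 is also known as a pericyte gene. The summed FPKM of 10 smooth muscle and pericyte markers went from 503 and 616 (E18.5) to 1737 and 1944 (P7). The part of such cells in the Abcc9 values was not tested. Kcnj11 measured 7.27 and 10.6 FPKM (E18.5), 6.81 and 9.74 (P1), 3.73 and 4.24 (P3), and 1.2 and 0.465 (P7). Abcc9 measured 13.0 and 14.9 FPKM (E18.5), 7.21 and 15.3 (P1), 5.0 and 5.34 (P3), and 2.19 and 1.63 (P7). In both genes the P1 libraries overlapped those of E18.5, and the P3 and P7 libraries lay below them. Of all genes tested, 28.4% were lower in both P3 libraries than in both E18.5 libraries. At P7 the difference from E18.5 was -2.45 ± 0.27 for Kcnj11 (adjusted p = 0.000153) and -2.37 ± 0.29 for Abcc9 (adjusted p = 0.000297). At P3 Abcc9 was called lower, by -1.27 ± 0.29 (adjusted p = 0.00803). Its main transcript, Abcc9-203, held 79.9% and 80.2% of the gene's FPKM at E18.5 and 30.1% and 62.1% at P3, and 79.3% and 99.4% at P7. Kcnj11 differed by -0.98 ± 0.27 at P3 with an adjusted p of 0.0165, which falls short of the required size. It was past it with a pseudocount of 0.1 (-1.13) and without E18.5 replicate 1 (-1.23). Abcc8, the other sulfonylurea receptor gene, went the same way, from 8.95 and 10.6 FPKM (E18.5) to 0.497 and 0.165 (P7), a difference of -3.02 ± 0.31 (adjusted p = 0.000108).

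A peak lay over the start of Kcnj11-201, a transcript with 0.191% and 3.99% of the gene's FPKM at E18.5, in E18.5 replicate 1 and P3 replicate 1. Another, at least 1781 bp from the nearest start, was found in P3 replicates 1 and 2 and P7 replicate 2, and P7 replicate 2 held one more, 68 bp from the start of Kcnj11-203. Abcc9 had a peak within chr6:142702267-142702777 in P3 replicate 1 and P7 replicate 1 only, with a fold enrichment of 3.72 and 3.56. The P3 peak covered a transcript start, and the P7 peak lay 77 bp upstream of the nearest start. The Abcc9 promoter at chr6:142702225-142702524, minus strand, is shown because it was the only 1 of 7 windows with a match to the MEF2 consensus, the site bound by a family of muscle transcription factors. Capitals mark that match, which spans the RefSeq start, and 1 GC box on the opposite strand (CCGCCC).
Abcc9: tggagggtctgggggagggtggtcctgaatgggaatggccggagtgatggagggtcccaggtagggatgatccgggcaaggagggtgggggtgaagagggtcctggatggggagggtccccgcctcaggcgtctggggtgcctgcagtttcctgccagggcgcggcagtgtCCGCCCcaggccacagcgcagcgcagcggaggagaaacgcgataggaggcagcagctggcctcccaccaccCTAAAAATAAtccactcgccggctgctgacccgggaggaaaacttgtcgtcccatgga

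Kcnh2 encodes the pore of the rapid delayed rectifier. It measured 26.2 and 32.3 FPKM (E18.5), 29.5 and 48.9 (P1), 21.5 and 20.2 (P3), and 7.83 and 4.66 (P7). Both P3 libraries were below those of E18.5 and P1, but the difference from E18.5 of -0.46 ± 0.28 did not pass the test (adjusted p = 0.201). At P7 the difference was -2.09 ± 0.28 (adjusted p = 0.000408). At P7 it was the highest of the 9 genes, with both libraries above those of Kcnj2, the next gene.

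The annotated transcripts of Kcnh2 also changed their shares. The long form, Kcnh2-201 (4221 exonic bases), starts at position 24351604 of chromosome 5, and the short form, Kcnh2-202 (3193 exonic bases), starts inside the gene at position 24329591. They differ in the amino terminus of the channel, the part that governs how fast it closes. The long form measured 19.8 and 24.0 FPKM (E18.5), 14.9 and 24.2 (P1), 11.04 and 9.26 (P3), and 3.4 and 1.71 (P7). The short form measured 2.82 and 1.97 FPKM (E18.5), 11.1 and 20.7 (P1), 8.37 and 8.27 (P3), and 3.05 and 1.63 (P7). Short transcripts thus made up 8.43% ± 3.30 (SD, n = 2) of Kcnh2 FPKM at E18.5. After birth their share was 40.0% ± 3.21 (P1), 39.9% ± 1.40 (P3) and 37.0% ± 2.84 (P7). The highest E18.5 share, 10.8%, was far below the lowest later one, 35.0%. The long form went from 75.5% and 74.3% of it in the E18.5 libraries to 50.6% and 49.5% in those of P1. These shares come from the authors' StringTie estimates, without a count of reads for each form, and they were not tested.

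**Figure D2:**
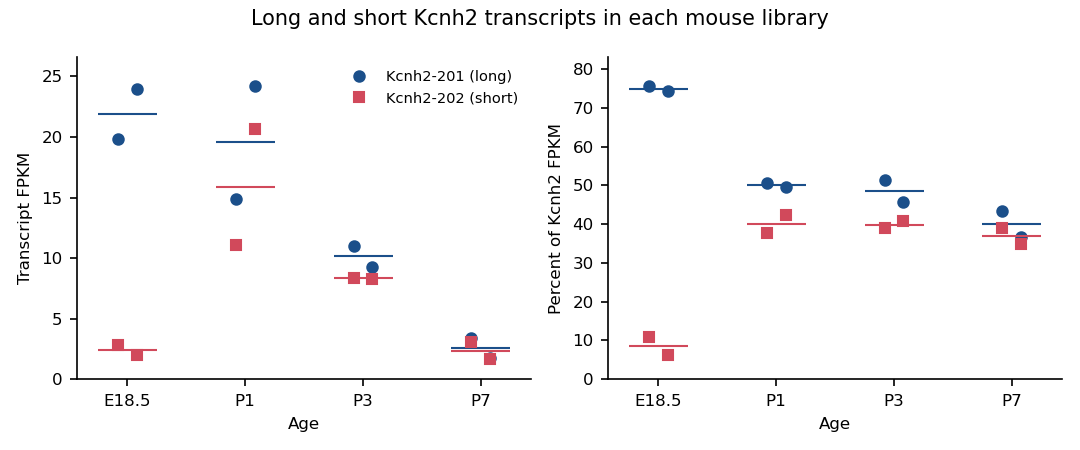
FPKM (left) and percent of all Kcnh2 FPKM (right) of the long and short Kcnh2 transcripts in each mouse RNA-seq library by age; points are libraries, lines are means of 2. The short form stood at 6.10% and 10.8% at E18.5 and at 35.0% to 42.3% in the 6 later libraries.

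All 8 ATAC-seq libraries held a peak within 2.5 kb (2500 bp) of a Kcnh2 start, but not at the same place. Just upstream of the long form, chr5:24351709-24352179 held a peak in both E18.5 and both P3 libraries and in P7 replicate 2. Just upstream of the short form, chr5:24329626-24329932 held a peak in E18.5 replicate 2 and P1 replicate 1, and P7 replicate 2 held one that covered its start. The remaining peaks lay 897 bp or more from a start. The 2 start windows are shown because the transcripts they give rise to changed in proportion. The short-form window is the RefSeq entry for Kcnh2 (chr5:24329542-24329841, minus strand), and the long-form window (chr5:24351555-24351854, minus strand) was read from the genome sequence around the start of Kcnh2-201. Capitals mark GC boxes, of which each window holds 3.
Kcnh2-202: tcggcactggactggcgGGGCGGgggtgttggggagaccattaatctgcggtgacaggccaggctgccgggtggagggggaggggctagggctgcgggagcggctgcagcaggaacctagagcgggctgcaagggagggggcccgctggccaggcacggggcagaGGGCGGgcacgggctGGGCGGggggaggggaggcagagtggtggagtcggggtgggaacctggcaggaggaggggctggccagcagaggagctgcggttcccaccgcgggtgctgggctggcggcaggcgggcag
Kcnh2-201: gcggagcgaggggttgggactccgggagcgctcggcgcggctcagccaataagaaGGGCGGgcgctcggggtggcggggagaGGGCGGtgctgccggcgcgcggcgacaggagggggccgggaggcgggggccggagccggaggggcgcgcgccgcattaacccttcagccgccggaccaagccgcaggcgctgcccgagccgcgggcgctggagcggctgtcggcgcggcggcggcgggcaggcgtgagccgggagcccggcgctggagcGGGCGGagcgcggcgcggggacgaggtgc

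Kcnq1 encodes the pore of the slow delayed rectifier, and Kcne1 its accessory subunit. Kcnq1 measured 17.2 and 23.3 FPKM (E18.5), 11.8 and 24.1 (P1), 7.37 and 9.14 (P3), and 2.22 and 1.09 (P7). Kcne1 measured 52.8 and 68.5 FPKM (E18.5), 15.3 and 26.4 (P1), 15.5 and 13.7 (P3), and 5.19 and 2.52 (P7). The accessory subunit was lower at P1 already, by -1.53 ± 0.32 (adjusted p = 0.00641), where Kcnq1 differed by -0.23 ± 0.34 (adjusted p = 0.615); whether the 2 genes differed in this change was not tested. At P7 both were called, with -3.02 ± 0.34 for Kcnq1 (adjusted p = 0.00018) and -3.71 ± 0.32 for Kcne1 (adjusted p = 5e-05). The P3 call of Kcnq1 (-1.19 ± 0.34, adjusted p = 0.0202) was lost in several alternatives. Its adjusted p was 0.0511 with TPM, 0.0756 with no expression filter, 0.116 without E18.5 replicate 2 and 0.0988 without P3 replicate 1. Kcnq1-201 carried 73.4% to 100% of the gene's FPKM. The antisense gene Kcnq1ot1 shares 121 exonic bases with Kcnq1 on the other strand, and it measured 0.0496 to 0.117 FPKM. A peak near a Kcnq1 start was found in P7 replicate 2 only, with a fold enrichment of 3.04.

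Kcnip2, Kcnd2 and Kcnd3 together make the channel of the fast transient outward current, with Kcnd2 and Kcnd3 as pores and Kcnip2 as the calcium-binding subunit that brings them to the membrane. Kcnip2 measured 21.9 and 38.8 FPKM (E18.5), 2.34 and 3.76 (P1), 1.35 and 1.51 (P3), and 0.116 and 0.0537 (P7). It was the only 1 of the 7 tested genes called at P1, by -2.92 ± 0.28 (adjusted p = 0.00023). The difference from E18.5 was -3.64 ± 0.28 at P3 (adjusted p = 6.3e-05) and -4.80 ± 0.28 at P7 (adjusted p = 1.22e-05), the largest of the 7 genes at each age on this scale. Every alternative run that tested it kept these calls. The P7 libraries were also both below the P3 ones, and the little RNA left at P7 was assigned to Kcnip2-204, a transcript with a retained intron, which held under 4% of the gene's FPKM in the 6 earlier libraries.

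The pore genes of this current were near 0 throughout. Kcnd2 measured 0.425 and 0.352 FPKM (E18.5), 0.162 and 0.388 (P1), 0.404 and 0.249 (P3), and 0.168 and 0.0539 (P7). Kcnd3 measured 0.180 and 0.0774 FPKM (E18.5), 0.0728 and 0.0590 (P1), 0.0373 and 0.0682 (P3), and 0.121 and 0.0311 (P7). The P7 libraries of Kcnd2 were below those of E18.5, and those of Kcnd3 were not. At E18.5 the accessory subunit Kcnip2 was thus measured at a mean of 30.4 FPKM and the pore genes Kcnd2 and Kcnd3 at 0.389 and 0.129 FPKM.

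The 3 genes seldom had a peak near a start. Kcnip2 had 1 in P3 replicate 1 alone, over an inner start (chr19:45812270-45812429), and Kcnd2 1 in E18.5 replicate 2 alone. Kcnd3 had peaks in both P3 libraries and P7 replicate 2. The Kcnip2 promoter at chr19:45816014-45816313, minus strand, is shown because its gene was called lower earliest and none of the 8 peak lists covered it. Capitals mark 2 GC boxes.
Kcnip2: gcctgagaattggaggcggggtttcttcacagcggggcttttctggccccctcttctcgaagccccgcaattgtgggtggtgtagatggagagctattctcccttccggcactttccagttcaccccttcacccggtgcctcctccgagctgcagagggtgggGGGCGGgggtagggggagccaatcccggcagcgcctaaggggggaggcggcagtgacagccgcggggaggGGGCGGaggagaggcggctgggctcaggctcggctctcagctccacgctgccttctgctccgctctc

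Hcn4 encodes the pacemaker channel that is strongest in the sinoatrial node and that the fetal ventricle also makes. It measured 2.06 and 1.38 FPKM (E18.5), 1.53 and 3.13 (P1), 0.784 and 0.330 (P3), and 0.136 and 0.0957 (P7). The P1 libraries overlapped those of E18.5, while those of P3 and P7 were below. The difference from E18.5 was -0.81 ± 0.27 at P3 (adjusted p = 0.0364), short of the required size, and -1.27 ± 0.27 at P7 (adjusted p = 0.00438). With a pseudocount of 0.1 and with limma-voom on estimated reads the P3 differences were -1.53 and -1.70 and were called. Hcn2, which encodes another channel of the family, was called higher than at E18.5 at P1 only, by 1.02 ± 0.17 (adjusted p = 0.00296), a call lost with size factors (0.94) and without E18.5 replicate 1 or P1 replicate 2 (0.86 and 0.90). The summed FPKM of 9 conduction system markers was 38.9 and 30.7 (E18.5), 58.1 and 83.5 (P1), and 28.2 and 26.4 (P7), and its part in these values was not tested. A peak lay 298 bp or more from the start of the annotated transcript Hcn4-201 in E18.5 replicate 1, P3 replicate 1 and P7 replicate 1. Each of these peaks overlapped the RefSeq promoter window of Hcn4 (chr9:58822699-58822998), whose start lies upstream of that transcript.

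The 16 cardiomyocyte markers, which include none of the 9 genes, were called lower than at E18.5 in 4 (P1), 14 (P3) and 16 (P7) of 16, with a median difference of -0.82, -1.83 and -4.26. The members were not set against these medians, because on this scale a gene cannot fall by more than its own level at E18.5. Per 1000 FPKM of the summed markers, Kcnip2 measured 0.695 and 0.958 FPKM (E18.5), 0.164 and 0.162 (P1), 0.140 and 0.181 (P3), and 0.0486 and 0.0533 (P7), so that its P1 and P3 libraries overlapped. Kcnh2 went from 0.830 and 0.797 at E18.5 to 3.29 and 4.62 at P7, and Kcnj2 from 0.122 and 0.0907 to 1.1 and 2.82. On this ratio both P7 libraries lay above both E18.5 libraries for 7 of the 9 genes and below them for Kcnip2, and they overlapped for Hcn4. The summed markers themselves fell from 31573 and 40506 FPKM (E18.5) to 2383 and 1009 (P7). Any gene that fell less than they did, or did not change, therefore rose on this ratio. The 7 genes include Kcnd2 and Kcnd3, which stayed under 1 FPKM, and the share of all genes that rose in this way was not taken. The ratio is a description with no test, since other cells of the sample may also express these genes.

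**Figure D3:**
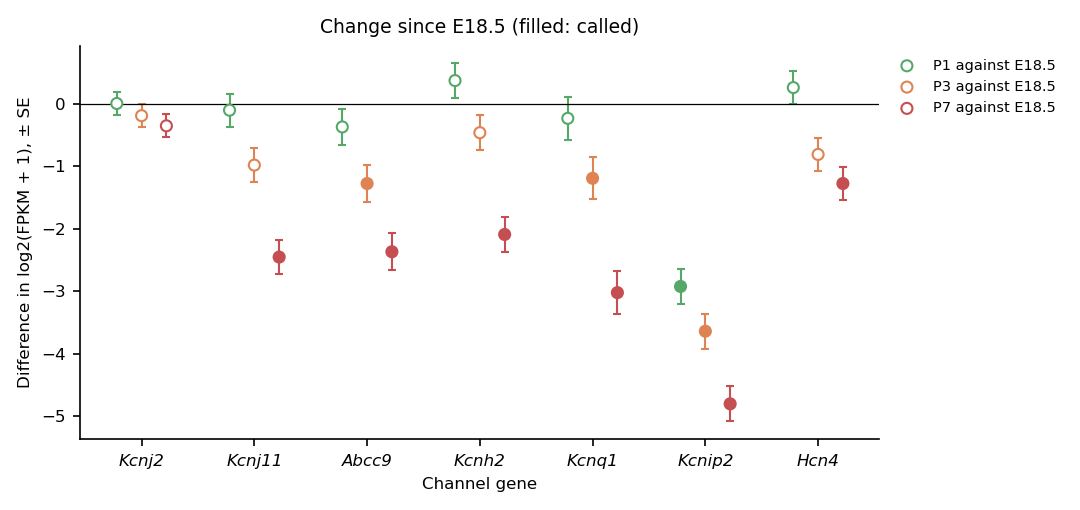
Difference in log2(FPKM + 1) from E18.5 (vertical axis, ± SE) of the 7 tested channel genes at P1, P3 and P7, filled where called. Kcnip2 is filled at all 3 ages, and Kcnj2 at none.

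In P1 the level of 8 of the 9 genes was higher in replicate 2, the library with the larger cardiomyocyte sum. In P7 the level of 8 of the 9 was higher in replicate 1, where again that sum was larger. The replicate with the larger sum was higher in 5 of the 9 at E18.5 (replicate 2) and in 4 of the 9 at P3 (replicate 1). The 9 include Kcnd2 and Kcnd3, which stayed under 1 FPKM. The share of all genes that were higher in the same replicate was not taken, and a link to the cardiomyocyte sum was not tested. The 2 libraries of an age correlated over all genes tested with r between 0.976 and 0.986.

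Genes whose pattern over the 8 mouse libraries was most like that of each member were looked for among the 8939 or 8940 tested genes with a mean of at least 5 FPKM, by Pearson's r of log2(FPKM + 1). The libraries share ages, so r mostly reads the course over age. Kcnq1 was closest to Mhrt (r = 0.999), a long noncoding RNA of the myosin heavy chain locus, and to Klhl30 (r = 0.997). Kcnh2 was closest to 2610507B11Rik (r = 0.999) and to Slc2a4 (r = 0.997), the insulin-responsive glucose transporter. Kcnj11 was closest to Fbxl22 and Fhod3, both r = 0.998, which act at the sarcomere. Abcc9 was closest to Spsb4 (r = 0.995) and Dnajb5 (r = 0.994). Kcnip2 was closest to Aldh1b1 and Ivd (both r = 0.997), which encode mitochondrial enzymes. The values were lower for Hcn4, with Clasp1 (r = 0.980) and Tmx4 (r = 0.976), and for Kcnj2, with Zfp617 (r = 0.967) and Rdh14 (r = 0.953).

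Across the 9 genes, ATAC-seq peaks near transcript starts were few. Both libraries of an age held one within 2.5 kb for 2 (E18.5), 2 (P1), 4 (P3) and 2 (P7) of the 9. Among the 13979 tested genes the share with a peak in both libraries was 56.7%, 41.3%, 87.5% and 83.2% at the same ages. Kcnd2 and Kcnd3, which were not tested, count among the 9 but not among the 13979. These shares and those below thus cover a set of genes without them. Kcnj2 and Kcnh2 made up the count at E18.5, P1 and P7, and Kcnj11 and Kcnd3 joined them at P3. Kcnj2 and Kcnh2 had a peak in all 8 libraries, as had 36.6% of the tested genes. The peak lists held from 13149 to 95257 peaks, and the longest list, P3 replicate 1, was also the one with peaks near the most members, 7 of 9, where 91.7% of the tested genes had one. With the 13149 best peaks of each library, the counts in both libraries were 2 (E18.5) and 1 at each later age, where 54.1%, 31.5%, 37.3% and 45.2% of the tested genes had such peaks. Kcnj2 was then still found in all 8 libraries, Kcnh2 in 4, and the other 7 genes in at most 1. The depth of the ATAC-seq libraries is not in these lists, and the lack of a peak does not show closed chromatin.

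**Figure D4:**
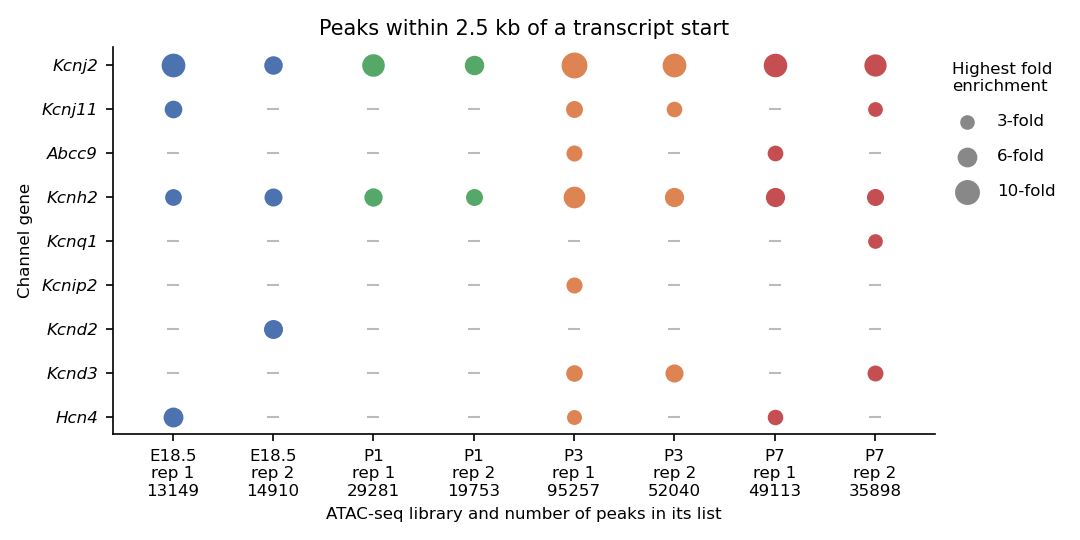
ATAC-seq peaks within 2.5 kb of a transcript start of each channel gene (rows) in the 8 mouse libraries (columns, with the number of peaks in each list); the area of a point is the highest fold enrichment over background among the gene's peaks, and a dash stands for no peak. Kcnj2 and Kcnh2 have a peak in all 8 libraries and the other 7 genes in 1 to 4.

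RefSeq promoter windows of 300 bases were given for 7 of the 9 genes, all but Kcnj11 and Kcnq1. Their GC content was between 64.0% and 74.3%, above the median of 52.7% over all 32851 windows. On either strand, GGGCGG was found in 6 of the 7, with Kcnd3 the exception, and in 35.7% of all windows. CACGTG was found in Kcnj2 alone and in 7.15% of all windows. The MEF2 consensus was found in Abcc9 alone and in 3.19% of all. None of the 7 held the AP1 site TGANTCA, found in 7.81% of all windows, or TATAAA, found in 13.6%. A match is a description of the letters and no evidence of binding.

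Of 61 other genes of potassium, pacemaker and sodium channel subunits, 26 were tested in mouse. At P7, 5 were called higher and 10 lower than at E18.5, where 15.4% and 12.3% of all genes were. The 7 further inward rectifier and ATP-sensitive subunits held 5 tested genes, of which Abcc8, Kcnj5 and Kcnj12 were lower. Kcnj5, a subunit of the acetylcholine-gated channel, went from 13.5 and 8.88 FPKM (E18.5) to 2.0 and 1.08 (P7) (-2.26 ± 0.25, adjusted p = 0.000153). Of 4 tested voltage-gated subunits, Kcna4 and Kcng2 were lower. Kcna4, the pore of the slow transient outward current, went from 2.14 and 2.0 FPKM to 0.156 and 0.0636 (-1.47 ± 0.18, adjusted p = 0.000247).

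Kcne4, an accessory subunit that inhibits Kcnq1 channels, went from 0.692 and 0.551 FPKM (E18.5) to 4.14 and 4.61 (P3) and 21.9 and 33.7 (P7). Its difference at P7 was 4.12 ± 0.29 (adjusted p = 2.6e-05), so that the summed level of the accessory list at P7 (36.1 and 44.7 FPKM) came mostly from Kcne4, where at E18.5 (56.9 and 73.3 FPKM) it had come from Kcne1. Kcnab1, a cytoplasmic subunit, went from 0.263 and 0.0863 FPKM to 11.8 and 12 (P1) and was still called higher at P7, by 2.45 ± 0.22 (adjusted p = 5.88e-05). Among 9 tested tandem pore-domain and calcium-activated channel genes, Kcnk2 and Kcnmb1 were higher and Kcnk3, Kcnn1, Kcnn2 and Kcnn4 lower. The Kcnn4 call (-1.01) was lost with no expression filter (adjusted p = 0.0501) and without E18.5 replicate 2 (-0.74) or P7 replicate 2 (-0.72). Kcnk2 went from 0.324 and 0.202 FPKM to 5.71 and 6.51 (2.49 ± 0.24, adjusted p = 9.34e-05), and Kcnk3, of the same family, from 10.7 and 8.27 to 2.09 and 0.758 (-2.16 ± 0.28, adjusted p = 0.000403). Fibroblast markers rose over the same ages, with 10 of 12 called higher at P7. Of 9 tested smooth muscle and pericyte markers, 5 were called higher and 2 lower at P7. The part of either list in these rises was not tested.

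In cultured rat cells, none of the 7 tested members was called between TSA and DMSO by limma, and none had an unadjusted p under 0.05. Of the 13625 rat genes tested, 2.13% were called. The treatments overlapped for all 7, where 10.1% of the rat genes were lower and 17.1% higher in every TSA library than in every DMSO library. The third replicate of each treatment stood apart: the summed FPKM of 7 atrial markers was 7760 (DMSO) and 11533 (TSA) in replicate 3 and 1308 to 1583 in the other 4 libraries. All 8 members listed in rat were lowest in replicate 3 of the DMSO libraries, and 7 of 8 were lowest, or tied for it at 0, in replicate 3 of the TSA libraries. The share of all rat genes that were lowest in those libraries was not taken, so this order is not particular to the members. Kcnj2 measured 21.1, 19.6 and 7.45 FPKM with DMSO and 22.7, 23.9 and 20.3 with TSA. The difference of 0.57 ± 0.35 was the largest of the 7 (adjusted p = 0.44) and was 0.12 without DMSO replicate 3. Kcnj11 measured 21.5, 21.8 and 8.02 FPKM with DMSO and 18.3, 17.6 and 15.2 with TSA, a difference of 0.11 ± 0.35 (adjusted p = 0.906) that turned to -0.33 without DMSO replicate 3.

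The other members overlapped between treatments as well. Kcnh2 measured 41.1, 43.5 and 26.6 FPKM with DMSO and 34.2, 35.3 and 30.3 with TSA. Kcnq1 measured 34.3, 33.9 and 30.1 FPKM with DMSO and 31.7, 39.7 and 41.1 with TSA. Those 2 delayed rectifier genes had the highest levels of the rat members. Abcc9 measured 18.3, 22.1 and 14.0 FPKM with DMSO and 16.5, 17.7 and 15.7 with TSA. Hcn4 measured 9.13, 8.48 and 4.68 FPKM with DMSO and 6.93, 6.96 and 3.19 with TSA, a difference of -0.35 ± 0.33 (adjusted p = 0.618). Kcnd3 measured 6.83, 5.90 and 3.38 FPKM with DMSO and 6.66, 5.13 and 4.49 with TSA. Exact two-sided permutation tests over the 3 against 3 libraries gave p values from 0.2 to 1 for the 7 genes, where 0.1 is the smallest they can give. Between same-numbered libraries, Kcnj2 was higher with TSA in 3 of 3 pairs and Hcn4 lower in 3 of 3. With the replicate number as a block, the limma difference was 0.57 ± 0.26 for Kcnj2 (adjusted p = 0.252) and -0.35 ± 0.10 for Hcn4 (adjusted p = 0.128), and none of the 7 was called. Kcnip2 was not tested. It measured 2.72 and 2.29 FPKM in DMSO replicates 1 and 2 and 0.443 in TSA replicate 2 and was listed at 0 in the other 3 libraries. In these files a value of 0 can be a failed estimate, since 3 to 7 genes per rat library were listed at 0 there and at 5 FPKM or more in every other library.

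**Figure D5:**
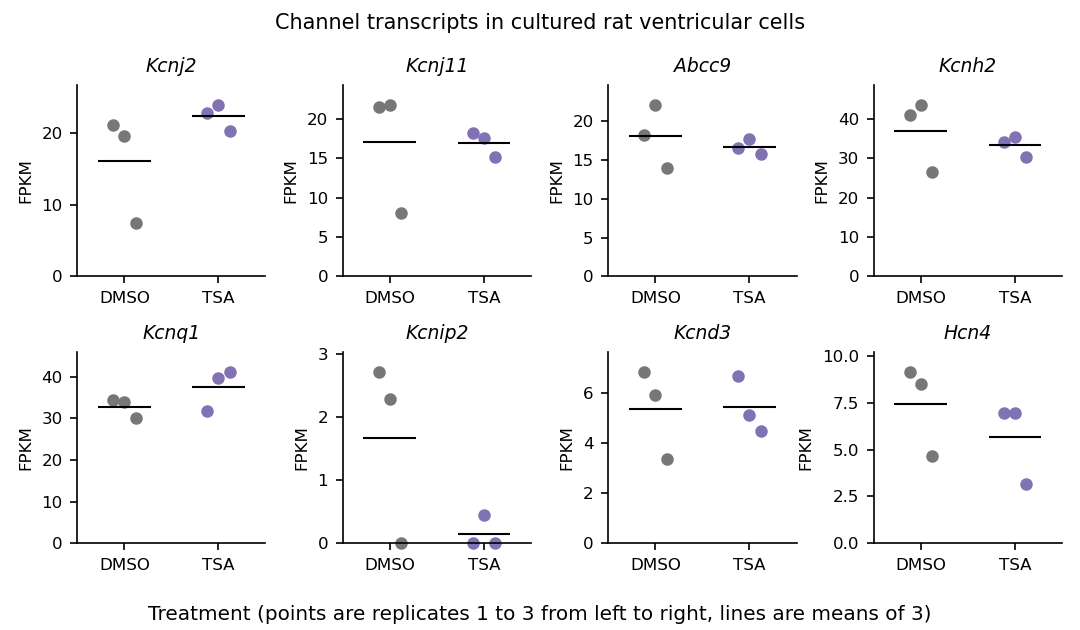
FPKM (vertical axis, linear, from 0) of the 8 channel genes listed in rat, in each DMSO and TSA library (points, replicates 1 to 3 from left to right), with the mean of 3 as a line. The groups overlap for the 7 tested genes, and the third DMSO replicate is the lowest of its group in all 8 panels.

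Without both replicate 3 libraries, a choice made after seeing the data, again none of the 7 was called. Kcnh2 then differed by -0.27 with an adjusted p of 0.0395, under the required size, and Kcnj11 by -0.26 (adjusted p = 0.0547). Of 32 other channel genes tested in rat, 3 were called higher with TSA and 1 lower, where 1.81% and 0.316% of all genes were. Hcn2 measured 11, 10.7 and 6.26 FPKM with DMSO and 23.0, 24.8 and 38.2 with TSA (1.52 ± 0.26, adjusted p = 0.0315). Kcnab3, a cytoplasmic potassium channel subunit, measured 0.393, 0.573 and 0.685 FPKM with DMSO and 2.75, 3.02 and 3.91 with TSA (1.44 ± 0.17, adjusted p = 0.0122). Kcnn4, a calcium-activated potassium channel, was lower (-1.03 ± 0.20, adjusted p = 0.0392). With the replicate number as a block, the adjusted p of Hcn2 was 0.0615, and the other 3 calls remained. Leaving out DMSO replicate 1, or any 1 of the TSA libraries, left none of the 4 calls and no other one in these lists, leaving out DMSO replicate 2 left 1, and leaving out DMSO replicate 3 left 4. Levels in rat and mouse were not compared, because the gene models differ in length, for Kcnj2 with 1679 bases in rat and 5444 in mouse.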

How the data were processed

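Cells came from left ventricles of mice at 4 ages and from cultured rat cells at P1. The authors aligned poly(A)-selected 150 bp read pairs with HISAT2 2.1.0 and ran StringTie, version 1.3.5 for mouse (mm10, GENCODE vM21) and 1.3.4d for rat (Rnor_6.0, Ensembl 103) per the file headers; neither the kit nor the StringTie call kept strand. The deposited files hold FPKM, TPM and coverage per transcript, other attributes of each line that the authors did not rescale further. The authors called ATAC-seq peaks for each library with MACS2 on mm10 and removed blacklisted regions. The deposited peak lists give the authors' score, the fold enrichment as a ratio of signal to background, and −log10 p and q. Read counts were not used here, so the count test used by the study was replaced by limma.

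FPKM was summed over the transcripts of a gene. Depth, from the ratio of coverage to FPKM, was 29.3 to 37.5 M reads in mouse and 28.2 to 38.5 M in rat. Genes with at least 1 FPKM in at least 2 mouse or 3 rat libraries were fitted as log2(FPKM + 1) with limma 3.58.1 (eBayes with a trend, all libraries of a species in 1 fit), two-sided. limma and the peak search were tested on simulated data. The study does not say whether same-numbered rat libraries were paired. Their deviations from the group means correlated with r = 0.224, 0.194 and 0.346. Differently numbered libraries of opposite treatments gave r from -0.270 to 0.167. This is a hint of pairing from the data only, and replicate 3 stood apart in both treatments. A peak was near a gene when its nearest base lay within 2500 bp of a transcript start. Named genes were every member, other channel genes that were called or had a mean of at least 5 FPKM in a group, and the 2 genes most like each member. Some channel genes that the rule names are counted but not reported here. All 55450 mouse gene IDs matched GENCODE vM21. Promoters came from the RefSeq table (GRCm38.p6), and the 7 used were identical when read back from the genome. Members and lists were chosen with earlier results of these data known. Alternatives are given at the end.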

Additional observations from a re-analysis of the deposited data

How the results depend on the processing

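The fits were repeated with TPM, size factors, a mean of at least 5 FPKM, a pseudocount of 0.1, no filter on expression, limma-voom on estimated reads, a replicate block, only the ages compared, and each library left out. At P1, 1 member was called in every alternative. At P3 the 3 calls became 5 with a pseudocount of 0.1 and with limma-voom, 4 with size factors, and 2 with TPM or no filter. At P7 the 6 calls became 5 with the stricter filter, which left Hcn4 untested, and were 6 in the rest. In mouse, where same-numbered libraries did not deviate together (r from -0.10 to 0.17), the replicate block gave 1, 3, 6 and 6 calls (P1, P3 and P7 against E18.5, and P7 against P1), as without it. In rat the block gave 0 member calls and 3 other channel calls, without Hcn2 (adjusted p = 0.0615), and changed no other call. Against E18.5 the median of all genes lay at 0.14 to 0.16, at 0.38 to 0.41 with TPM and at -0.02 to -0.01 with size factors.

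Only differences that were not called changed sign. At P1, Kcnj2 (0.01) was -0.15 with size factors and -0.21 to 0.22 with 1 library left out, and Kcnj11 (-0.10) was 0.12 with TPM and -0.35 to 0.15 with 1 library left out. With 1 library left out, Abcc9 was -0.86 to 0.13, Kcnq1 -0.72 to 0.26 and Hcn4 -0.091 to 0.62. At P3, Kcnj2 was 0.0083 with TPM. In rat, leaving out 1 library gave -0.33 to 0.33 for Kcnj11, -0.21 to 0.21 for Kcnd3, -0.34 to 0.0080 for Kcnh2 and -0.26 to 0.054 for Abcc9. Kcnd3 was -0.018 with TPM, and without both replicate 3 libraries Kcnj11 was -0.26 and Kcnd3 -0.10. The cause was not tested.

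The stricter filter tested only 7 other channel genes in mouse (from 26) and 11 in rat (from 32). Of these, 4, 4, 7 and 6 were called in mouse (from 12, 12, 15 and 11). In rat 0 were called (from 4), where Hcn2 was still tested (adjusted p = 0.0522). With no filter, 7 were called from P1 to P7 and 2 in rat, and without both rat replicate 3 libraries 2. With 1 library left out, 6 to 11 were called from P1 to P7 and 0 to 4 in rat, the 6 without P7 replicate 2.

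The counts of members with a peak in both libraries (2, 2, 4 and 2) were 0 (E18.5), 1 (P1) and 1 (P3) with the upper 0.5 of each list, and 1 (P1, P3 and P7) with equal numbers of peaks. Within 1 kb (1000 bp) they were 2 at P3 and 1 at P7, and with protein-coding starts 1 at P7. With 1 library alone they were 3 to 4 (E18.5), 4 to 7 (P3) and 4 to 5 (P7). With 2 libraries an age, a difference under the spread of such pairs could not be detected, and a level under 1 FPKM was not tested.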
